A study of Mus musculus with 23 samples.

Results

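The mRNAs of 10 genes that drive the cell division cycle were followed through muscle differentiation: the cyclins Ccnd1, Ccnd2, Ccnd3, Ccne1, Ccne2, Ccna2, Ccnb1 and Ccnb2 and the cyclin-dependent kinases Cdk1 and Cdk2. They were taken by symbol from gene tables of 32793 rows, all 10 were found, and all 10 were among the 14187 genes that passed the filter on low counts. The cells were C2C12, a mouse line of myoblasts, the precursors of muscle fibres, which form myotubes once serum is withdrawn, and RNA selected for poly(A) was sequenced. Control cells (called WT in the titles) and cells labelled Runx1KO (KO in the titles) were sampled on day 0, while growing with 20% fetal bovine serum, and on days 1, 3 and 6 of culture with 2% horse serum, the differentiation medium. For the last time the titles say day 6, used here, and the series text day 5. There were 23 libraries in 8 groups: WT at day 0 had 2, and the others had 3. The labels name neither the method of the knockout, nor whether the line is a single clone, nor whether replicates were separate cultures, so p-values measure the spread between these libraries, which may be technical.

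A cyclin is the regulatory subunit that switches on its kinase partner. D cyclins act with Cdk4 and Cdk6 early in G1 and link growth factors to phosphorylation of the retinoblastoma protein, which releases E2f transcription factors. E cyclins with Cdk2 then start DNA replication, cyclin A acts with Cdk2 in S phase and with Cdk1 later, and B cyclins with Cdk1 carry the cell into mitosis. Myoblasts leave this cycle before they fuse, and cyclin D3 is known to stay high in muscle cells that have left it.

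The 10 genes fell into 3 patterns. Ccne1, Ccne2, Ccna2, Ccnb1, Ccnb2, Cdk1 and Cdk2 were lower at day 6 than in growth medium in both genotypes, and at day 3 all 7 were higher in libraries labelled KO than in WT. Against day 0, Ccnd1 was lower at days 1, 3 and 6 and Ccnd3 was higher at days 3 and 6 in both genotypes, and by mean TPM the most abundant D cyclin mRNA was Ccnd1 at day 0 and Ccnd3 at day 6. Ccnd2 followed neither course: it was lower in libraries labelled KO than in WT at days 1, 3 and 6.

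Upstream sequences are shown for 4 genes: Ccnb1, Ccnb2 and Cdk1, the members with the largest genotype difference at day 3, whose promoters are known for CCAAT boxes and for the cell cycle homology region (CHR), and Ccne1, a gene of the G1/S class. Each run is the 200 bases before an annotated start, 5′ to 3′ on the gene's strand, from RefSeq's GRCm38.p6. Capitals mark CCAAT boxes, which read ATTGG where they lie on the other strand, and the CHR, searched as TTTGAA and, in its other form, as TTTAAA. They are Ccnb1 at chr13:100786487-100786686 (minus strand), Ccnb2 at chr9:70421555-70421754 (minus strand), Cdk1 at chr10:69352913-69353112 (minus strand) and Ccne1 at chr7:38107491-38107690 (minus strand).
Ccnb1: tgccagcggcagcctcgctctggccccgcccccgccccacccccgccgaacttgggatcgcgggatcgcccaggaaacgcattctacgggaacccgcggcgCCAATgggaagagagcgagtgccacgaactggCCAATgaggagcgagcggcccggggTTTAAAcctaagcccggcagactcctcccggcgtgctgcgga
Ccnb2: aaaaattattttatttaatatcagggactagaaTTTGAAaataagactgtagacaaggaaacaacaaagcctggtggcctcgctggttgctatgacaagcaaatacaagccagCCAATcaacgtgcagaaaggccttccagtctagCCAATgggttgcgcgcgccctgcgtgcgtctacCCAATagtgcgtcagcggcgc
Cdk1: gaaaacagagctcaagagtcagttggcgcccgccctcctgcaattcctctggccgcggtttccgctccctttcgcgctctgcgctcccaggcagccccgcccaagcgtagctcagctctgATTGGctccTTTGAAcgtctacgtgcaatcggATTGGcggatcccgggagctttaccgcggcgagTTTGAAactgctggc
Ccne1: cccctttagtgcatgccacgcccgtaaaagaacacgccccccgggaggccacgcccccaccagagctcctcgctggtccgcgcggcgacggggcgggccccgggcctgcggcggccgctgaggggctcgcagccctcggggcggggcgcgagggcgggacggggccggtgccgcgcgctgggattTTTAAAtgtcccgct

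The Ccnb1 window held 2 CCAAT matches, at -99 and -67 from the start, and TTTAAA at -42. Ccnb2 held 3 CCAAT matches, at -87, -54 and -21, and TTTGAA at -167. For Cdk1 there were 2 CCAAT matches on the other strand, at -80 and -48, TTTGAA at -71 and -15, and the E2f letters TTTCGCGC at -131. Several CCAAT boxes near the start are a known arrangement in promoters of mitotic genes. Ccne1 held TTTAAA at -15, no CCAAT and none of the E2f letters searched. Windows were also found for Cdk2, with CCAAT at -45 and TTTCCCGC on the other strand at -140, and for 2 starts of Ccnd3, of which one held CCAAT at -108. Of 32851 windows of this length in RefSeq's table, 29.3% held CCAAT on either strand, 20.0% held TTTGAA or TTTAAA, and 1.58% held one of the E2f letters searched (TTTCCCGC, TTTGGCGC, TTTCGCGC and TTTGCCGC). None of the 7 windows held TGTGGT or TGCGGT, letters bound by Runx proteins, which 4929 of all windows held. A match describes letters, not a bound site, and binding was not measured. Ccnd1, Ccnd2, Ccne2 and Ccna2 are named only.

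**Figure D1:**
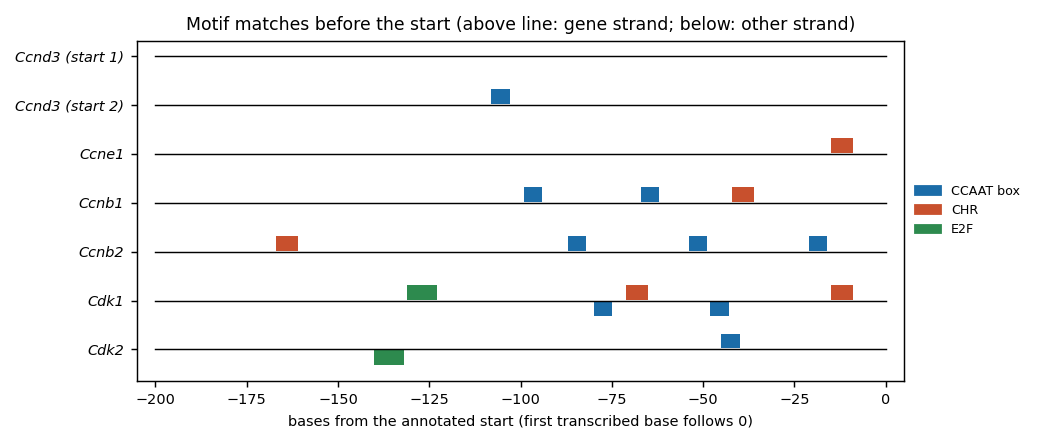
Motif matches in the 200 bases before 7 annotated starts of 6 genes, plotted by distance from the start in bases, with boxes above the line on the gene's strand and below it on the other strand. Ccnb2 has 3 CCAAT matches, and Ccnb1 and Cdk1 have 2 each.

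The libraries were of nearly equal depth, from 22197606 to 23684077 estimated counts. Levels are given as CPM (counts scaled to library size by TMM, for one gene across groups) or as TPM (a share of transcripts that corrects for length, used between genes). Runx1, the gene named in the knockout, went against the label: its level was 83.9 to 84.0 CPM in WT and 118 to 122 CPM in KO libraries at day 0, and 146 to 165 against 297 to 320 CPM at day 6. Its log2 fold change (log2FC), labelled KO over WT, was 0.51 at day 0 (adjusted p = 0.000362) and 1.02 at day 6 (adjusted p = 6.11e-10). Which part of the gene was altered is not given in the labels, so this level does not check the knockout, and the libraries are called labelled KO. The 6 myoblast markers were expressed in every group (summed TPM 1063 to 2009), and the summed TPM of 6 myotube markers rose from 2.26 to 2.36 in WT and 3.35 to 3.50 in labelled KO at day 0 to 1889 to 2333 and 11178 to 13086 at day 6. The 5 macrophage or blood markers had a summed TPM of 12.3 to 27.9; Ptprc, the pan-leukocyte marker, was listed at 0 in every library of 7 groups and Adgre1 in every library of all 8. Epcam was listed at 0 in all but the day 6 libraries labelled KO, and summed TPM of the endothelial, epithelial and adipocyte lists reached at most 0.65, 2.18 and 1.88. In bulk RNA, fewer cells of a type and less RNA per cell cannot be told apart.

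Changes were tested with edgeR's quasi-likelihood test, with a threshold of 0.05 on p-values adjusted over 14187 genes, and errors of log2FC are standard errors (SE). Of all genes called between genotypes, 42.1% were higher in libraries labelled KO at day 0, 54.4% at day 1, 55.5% at day 3 and 51.4% at day 6. These splits depended on scaling and became 31.3%, 43.3%, 34.3% and 34.9% with limma on log2(TPM + 1), and 29.5% at day 0 by library size alone. The share of calls that rose from day 0 moved likewise, from 49.6%, 50.1% and 51.2% (WT days 1, 3 and 6) to 60.6%, 63.8% and 63.5%, and from 51.9% to 65.2% at day 1 in labelled KO. For genotype-by-step differences it moved from 66.8% to 51.4% (day 0 to 1) with limma and from 51.5% to 61.8% (day 3 to 6) with RLE scaling. With limma on TPM the median over all genes also shifted, by -0.125 and -0.10 (log2) for the genotypes at days 3 and 6 and by 0.106 and 0.10 for WT at days 3 and 6 against day 0. No member value that passed the test changed sign under any alternative run.

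One library stood apart most. Replicate 2 of labelled KO at day 1 deviated from the mean of the other libraries of its group with the GC content of the genes (r = -0.624 across 13265 genes, which are not independent). The other 2 libraries had 0.43 and 0.427, but the mean they were set against includes replicate 2. Next came WT at day 6, with 0.221 for replicate 2 and -0.217 for replicate 3. The labelled KO library that stood apart had the lowest level of Ccnd3 in its group, which has the highest GC content among the members (56.7%), and the highest level of Ccne2, which has the lowest (36.3%). Without it, among the values given further on, the genotype log2FC at day 1 was 1.12 for Ccne2 and 0.76 for Ccnb1 (1.29 and 0.92 with it), the difference between genotypes from day 0 to day 1 was 0.98 and 0.65 (1.18 and 0.84 with it), and the Ccnd3 log2FC from day 1 to day 3 in labelled KO was 0.61 (0.81 with it). Each of these passed the test either way, and calls that it changes are given beside them.

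Ccnd1 encodes cyclin D1, the D cyclin most tied to growth factor signals. Its gene lies at chr7:144929931-144939831 on the minus strand. At day 0 it stood at 478 and 485 CPM in WT and 635, 615 and 667 CPM in libraries labelled KO. By day 1 it was 238, 245 and 235 CPM in WT and 304, 249.6 and 304 CPM in labelled KO. The 2 genotypes had crossed by day 3, at 149, 158 and 153 CPM in WT and 121, 125 and 138 CPM in labelled KO. At day 6 the values were 115, 146 and 151 CPM in WT and 101, 81.0 and 87.2 CPM in labelled KO. The genotypes did not overlap on any day, with labelled KO above WT on days 0 and 1 and below it on days 3 and 6. On days 0, 1, 3 and 6 the genotypes did not overlap for 51.6%, 47.1%, 60.4% and 51.7% of all genes. These shares stand beside each gene described below as well.

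In labelled KO libraries Ccnd1 at day 6 was 14.1% ± 1.6 of its day 0 mean (SD, n = 3), against 28.5% ± 4.0 in WT. From day 0 the log2FC at day 6 was -2.83 ± 0.10 in labelled KO (adjusted p = 6.8e-17) and -1.81 ± 0.11 in WT (adjusted p = 8.77e-13). In the order of levels over the 8 groups, WT at day 3, WT at day 6 and labelled KO at day 3 were neighbours that overlapped, and the other neighbours did not. Ccnd1 shares 21.6% of its 50-base stretches, on either strand, with LTO1, which overlaps it on the opposite strand, and the use of strand in the counting is not given in the sources used here.

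Ccnd2, at chr6:127125162-127152188 on the minus strand, encodes cyclin D2. Growth-medium levels were 83.9 and 83.1 CPM in WT and 92.8, 92.6 and 102 CPM in labelled KO. After 1 day they were 60.1, 59.0 and 61.6 CPM in WT and 45.2, 44.6 and 44.9 CPM in labelled KO. After 3 days WT stood at 75.0, 76.4 and 78.4 CPM and labelled KO at 39.6, 42.1 and 38.9 CPM. This was the lowest group of the 8, and it did not overlap with any other. By day 6 WT was at 101, 100.01 and 125 CPM and labelled KO at 76.3, 74.5 and 65.2 CPM.

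Thus Ccnd2 in WT dipped at day 1 and ended above its growth-medium level, with a log2FC from day 0 of 0.38 ± 0.09 at day 6 (adjusted p = 0.000617). In labelled KO it ended below that level, at 75.2% ± 6.2 of day 0 (SD, n = 3) and a log2FC of -0.41 ± 0.08 (adjusted p = 6.42e-05). Of the order of its levels, the neighbours that overlapped were WT at day 6 with labelled KO at day 0, and WT at day 3 with labelled KO at day 6.

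Ccnd3, at chr17:47505051-47599689 on the plus strand, encodes cyclin D3. It began at 207 and 207 CPM in WT and 199, 185 and 204 CPM in labelled KO. At day 1 its level was 227, 214 and 238 CPM in WT and 226, 149.5 and 228 CPM in labelled KO, the 149.5 CPM being the library that stood apart. At day 3 the level was 272, 265 and 278 CPM in WT and 362, 345 and 347 CPM in labelled KO. At day 6 it was 271, 296 and 266 CPM in WT and 356, 368 and 388 CPM in labelled KO. Labelled KO lay just below WT at day 0 without passing the test (log2FC -0.08, adjusted p = 0.74), overlapped with it at day 1, and was above it without overlap at days 3 and 6.

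Ccnd3 alone among the 10 genes rose from day 0 in both genotypes, with a log2FC at day 6 of 0.42 ± 0.12 in WT (adjusted p = 0.00293) and 0.92 ± 0.10 in labelled KO (adjusted p = 3.94e-08); Ccnd2 rose in WT only. Without the day 1 library that stood apart, the Ccnd3 log2FC from day 0 to day 1 in labelled KO was 0.22 (adjusted p = 0.00478) in place of 0.04 (adjusted p = 0.802).

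On the TPM scale the D cyclins could be set side by side. Ccnd1 made up 50.5% ± 0.2 of D cyclin TPM in WT at day 0 (SD, n = 2) and 58.3% ± 0.4 in labelled KO (SD, n = 3). Ccnd3 made up 43.6% ± 0.2 and 35.9% ± 0.5. By day 6 the share of Ccnd3 was 72.8% ± 2.8 in WT and 84.4% ± 1.7 in labelled KO, and that of Ccnd1 was 17.9% ± 1.9 and 10.2% ± 1.3. The sum of the 3 was 403 ± 13, 341 ± 8, 357 ± 3 and 368 ± 33 TPM at days 0, 1, 3 and 6 in WT, and 445 ± 23, 325 ± 44, 370.1 ± 8.6 and 387 ± 13 TPM in labelled KO. The 325 ± 44 TPM includes the library that stood apart, where Ccnd3 was at 142.66 TPM, against 195.8 and 206.74 TPM in the rest of its group. Ccnd2 was the least of the 3 in every group, with a share between 3.17% (labelled KO, day 3) and 9.32% (WT, day 6).

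**Figure D2:**
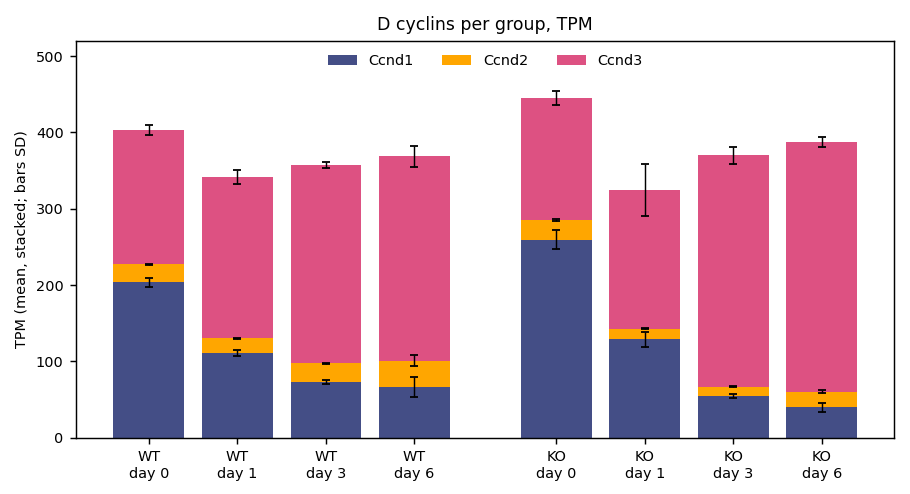
Mean TPM of Ccnd1, Ccnd2 and Ccnd3 stacked for each of the 8 groups, with bars for the SD of each gene over 2 or 3 libraries. Ccnd1 gives way to Ccnd3 in both genotypes, while the group means of the sum lie between 325 and 445 TPM.

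Ccne1, at chr7:38097984-38107490 on the minus strand, encodes cyclin E1, which with Cdk2 starts S phase. Its day 0 levels were 54.0 and 53.6 CPM in WT and 68.4, 68.7 and 75.6 CPM in labelled KO. At day 1 they had dropped to 16.1, 14.5 and 16.5 CPM in WT and to 36.0, 31.1 and 28.7 CPM in labelled KO. At day 3 WT stood at 17.8, 21.5 and 20.2 CPM and labelled KO at 32.3, 39.6 and 38.1 CPM. The gap had closed at day 6, when WT was at 13.7, 18.3 and 17.4 CPM and labelled KO at 16.9, 14.4 and 13.8 CPM. Labelled KO was thus above WT without overlap on days 0, 1 and 3, and overlapped with it on day 6.

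Ccne2, at chr4:11190433-11204779 on the plus strand, encodes the related cyclin E2. From 39.9 and 39.4 CPM in WT and 42.6, 41.3 and 44.7 CPM in labelled KO at day 0, it fell at day 1 to 9.30, 8.19 and 10.1 CPM and to 21.3, 27.0 and 19.2 CPM. At day 3 it was 13.0, 13.6 and 14.1 CPM in WT and 19.6, 27.6 and 22.8 CPM in labelled KO. Day 6 values were 6.70, 10.1 and 10.2 CPM in WT and 7.94, 7.31 and 7.58 CPM in labelled KO. The genotypes did not overlap on days 0, 1 and 3, although day 0 did not pass the test (log2FC 0.11, adjusted p = 0.687), and they overlapped on day 6. Ccne1 was the more abundant of the 2 by TPM in every library, at 65.0% to 77.2% of their sum. Ccne2 shares 14.4% of its 50-base stretches with Ints8 on the opposite strand.

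Ccna2, at chr3:36564865-36573038 on the minus strand, encodes cyclin A2, the cyclin of S phase and G2. It was the only member called lower in labelled KO than in WT at day 0, with 280, 282 and 293 CPM against 337 and 355 CPM. At day 1 the order was the other way, with 168, 156 and 153 CPM in labelled KO and 117, 111 and 120 CPM in WT. At day 3 labelled KO stood at 201, 215 and 232 CPM and WT at 135, 143 and 110.3 CPM. At day 6 they were close, at 81.7, 71.3 and 79.9 CPM and 60.6, 68.8 and 70.4 CPM. Labelled KO kept 75.7% ± 5.5 of its day 0 level at day 3 (SD, n = 3), and WT 37.4% ± 4.9. Ccna2 shares 11.4% of its 50-base stretches with Exosc9 on the opposite strand.

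Ccnb1, at chr13:100778739-100786486 on the minus strand, encodes cyclin B1, the main mitotic cyclin. Day 0 levels overlapped, at 149 and 160.0 CPM in WT and 155, 157 and 177 CPM in labelled KO. At day 1 they were 45.5, 41.1 and 49.2 CPM in WT and 76.5, 101 and 78.6 CPM in labelled KO. At day 3 WT was at 42.9, 43.9 and 32.9 CPM and labelled KO at 92.1, 96.7 and 102 CPM. At day 6 the values were 20.0, 20.9 and 24.1 CPM in WT and 34.9, 36.4 and 34.3 CPM in labelled KO. The groups were apart on each day in differentiation medium. The level of Ccnb1 is uncertain, since 23.4% of its 50-base stretches also occur in pseudogenes such as Ccnb1-ps, and how such reads were shared out is not given in the sources used here.

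Ccnb2, at chr9:70407689-70421554 on the minus strand, encodes cyclin B2 and has no such shared stretch. At day 0 it stood at 91.8 and 97.3 CPM in WT and 102, 102 and 98.4 CPM in labelled KO. At day 1 WT had dropped to 47.5, 51.4 and 54.2 CPM, while labelled KO was at 87.6, 95.0 and 86.1 CPM. At day 3 WT was at 45.4, 44.9 and 35.0 CPM and labelled KO at 103, 101 and 125 CPM. Here alone among the falling genes, the day 3 mean in labelled KO was above that of day 0, at 109% ± 13 of it (SD, n = 3), and the 2 overlapped (log2FC 0.12, adjusted p = 0.276). At day 6 WT was at 25.4, 28.6 and 27.5 CPM and labelled KO at 43.5, 37.9 and 41.8 CPM.

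By TPM, Ccnb1 and Ccnb2 were nearly equal at day 0 (Ccnb1 at 50.9% of their sum in WT and 50.6% in labelled KO). After the change of medium Ccnb2 was the larger in every group, at 62.3% to 66.4% of the sum.

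Cdk1, at chr10:69335146-69352912 on the minus strand, encodes the mitotic kinase that B cyclins activate. At day 0 it was at 163 and 175 CPM in WT and 206, 215 and 229.8 CPM in labelled KO. Levels at day 1 were 54.4, 57.4 and 61.9 CPM in WT and 125, 125 and 110.5 CPM in labelled KO. At day 3 they were 73.3, 74.4 and 67.8 CPM in WT and 144, 177 and 186 CPM in labelled KO, the latter overlapping with WT in growth medium. At day 6 they were 39.9, 50.8 and 42.6 CPM in WT and 61.7, 65.9 and 65.1 CPM in labelled KO. The genotypes did not overlap on any day.

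Cdk2, at chr10:128697938-128705051 on the minus strand, encodes the kinase of cyclins E and A and, of the 7 genes it was grouped with above, had the smallest fall from day 0 to day 6 in both genotypes. At day 0 it was at 71.6 and 68.4 CPM in WT and 77.7, 76.9 and 81.0 CPM in labelled KO. At day 1 the values were 44.3, 44.6 and 42.2 CPM and 56.5, 49.3 and 54.1 CPM. At day 3 they were 51.2, 52.3 and 52.5 CPM and 80.0, 73.0 and 69.2 CPM. Labelled KO at day 3 overlapped with both groups in growth medium. At day 6 WT was at 41.4, 42.4 and 43.2 CPM and labelled KO at 57.3, 57.9 and 55.8 CPM.

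**Figure D3:**
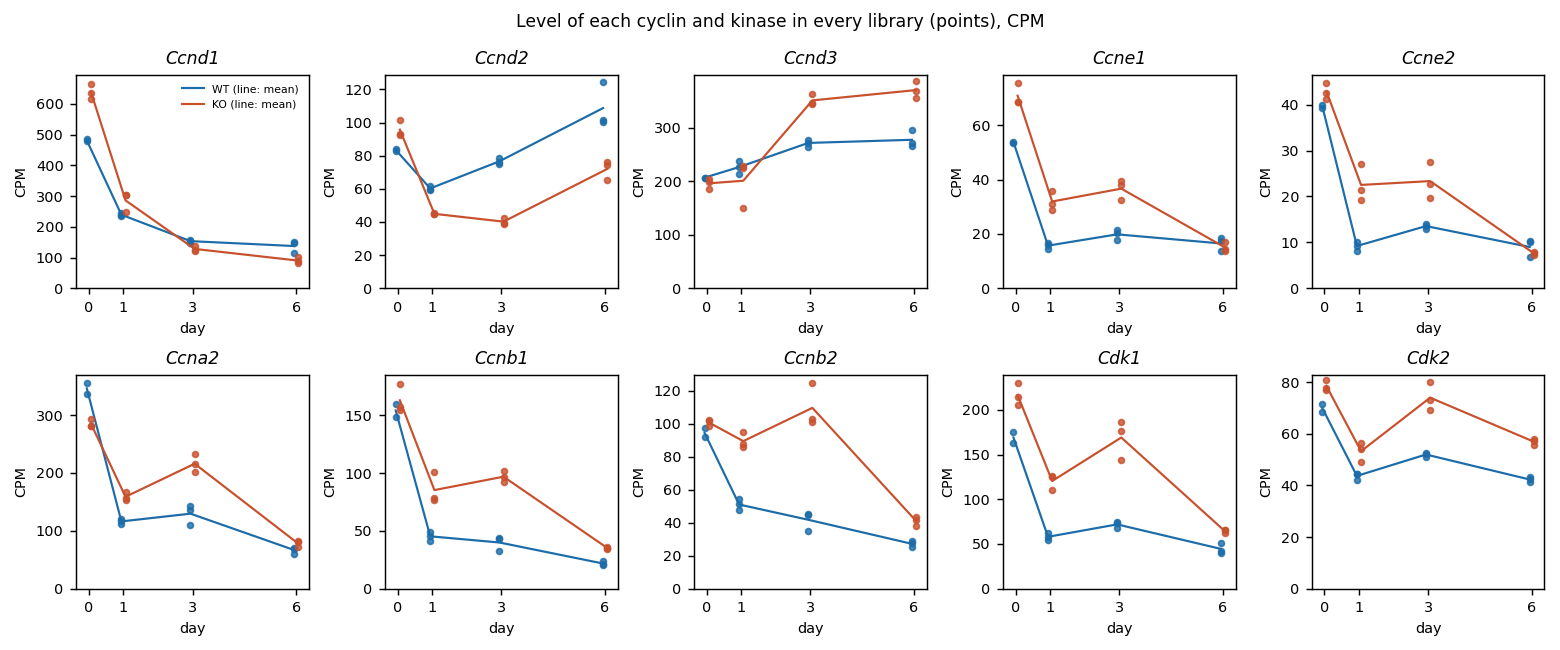
CPM of each of the 10 genes against day, with 1 point per library and lines through the group means, WT in blue and libraries labelled KO in red. Ccnd3 ends above its start in both genotypes, Ccnd2 in WT only, and the other members end below it.

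The same mean levels can be put in order over the 8 groups, as a description that adds no evidence for the 3 patterns. For Ccne1 and Ccne2 the order was labelled KO at day 0, WT at day 0, then labelled KO at days 3 and 1, which overlapped, and then the other 4 groups. Of these, neighbours overlapped from WT at day 3 down for Ccne1 and from WT at day 1 down for Ccne2. Ccna2 had WT at day 0 first, and only WT at days 3 and 1 overlapped as neighbours. Ccnb1 had both day 0 groups first, overlapping, and Ccnb2 had labelled KO at day 3 first, overlapping with labelled KO at day 0. Cdk1 and Cdk2 both had labelled KO at day 0 first and WT at day 6 last. Ccnd3 ran the other way, with labelled KO at days 6 and 3 first, overlapping, and labelled KO at day 0 last.

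The series compared each day with growth medium within a genotype. The 3 days share the day 0 libraries, and successive steps share the libraries between them. In WT, 9 of 10 members fell by day 1 and none rose at an adjusted p under 0.05, where 27.6% of all tested genes were lower, 27.1% higher and 54.7% either. Ccnd3 was not called (log2FC 0.13, adjusted p = 0.351), but passed with limma on log2(TPM + 1) (0.26, adjusted p = 0.0368) and on log2(TPM + 0.1) (0.27, adjusted p = 0.0367). The deepest falls were those of Ccne2 (log2FC -2.11 ± 0.15, adjusted p = 7.27e-11), Ccne1 (-1.78 ± 0.12, adjusted p = 3.05e-11) and Ccnb1 (-1.77 ± 0.12, adjusted p = 2.33e-11). In labelled KO, 8 of 10 fell by day 1, against 25.2% of all genes, and those not called were Ccnd3 and Ccnb2 (log2FC -0.17, adjusted p = 0.127). The median member log2FC at day 1 was -1.28 in WT and -0.89 in labelled KO, beside 0.02 and 0.04 over all genes.

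At day 3, 8 of 10 members were below day 0 in WT (29.0% of all genes), Ccnd3 was above (29.2%; 58.2% in either direction), and Ccnd2 was not called. In labelled KO 7 were below (27.2% of all genes), Ccnd3 was above (30.4%; 57.6% in either direction), and Ccnb2 and Cdk2 were not called. The median log2FC was -1.33 in WT and -0.58 in labelled KO. At day 6 all 10 members differed from day 0 in both genotypes, as did 63.6% of all genes in WT and 70.0% in labelled KO: 8 were lower and 2 higher in WT (31.1% and 32.6% of all genes), and 9 were lower and 1 higher in labelled KO (33.5% and 36.6%). The medians at day 6 were -1.80 and -1.82, and the largest falls were those of Ccnb1 in WT (log2FC -2.83 ± 0.12, adjusted p = 8.56e-15) and Ccnd1 in labelled KO.

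The step from day 0 to day 1 was itself compared between the genotypes, as a genotype-by-step difference in log2FC (labelled KO minus WT). It differed for 7 of 10 members, against 3.95% of all genes. For 6 the step was less negative in labelled KO (2.64% of all genes had a positive difference): Ccne2 (difference 1.18 ± 0.20, adjusted p = 0.0017), Ccnb1 (0.84 ± 0.16, adjusted p = 0.0039), Ccna2 (0.73 ± 0.13, adjusted p = 0.00198), Ccnb2 (0.72 ± 0.14, adjusted p = 0.0046), Cdk1 (0.70 ± 0.14, adjusted p = 0.0053) and Ccne1 (0.63 ± 0.16, adjusted p = 0.0302). For Ccnd2 it was more negative (-0.62 ± 0.12, adjusted p = 0.00383). Ccnd1, Ccnd3 and Cdk2 were not called, with differences of -0.15, -0.10 and 0.12 (for Ccnd3, 0.03 without the library that stood apart). The Ccne1 call was lost in 10 of 20 alternatives, among them leaving out any one of 7 libraries (adjusted p from 0.0135 to 0.13 over all 20), Ccnd2 was lost with limma on TPM (adjusted p up to 0.0746), and Cdk1 without WT day 0 replicate 2 (adjusted p = 0.053).

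The step from day 1 to day 3 held rises for some members. A rise in this step was named in the rule that chose these genes and was known before the test. The counts below therefore describe the members and are no independent test of the rise. In WT 7 of 10 members changed, against 19.7% of all genes. Of these 5 rose, against 11.0%: Ccne2 (log2FC 0.56 ± 0.15, adjusted p = 0.00837), Ccnd2 (0.35 ± 0.08, adjusted p = 0.00274), Ccne1 (0.34 ± 0.12, adjusted p = 0.0404), Cdk1 (0.31 ± 0.10, adjusted p = 0.023) and Cdk2 (0.25 ± 0.07, adjusted p = 0.00933). Ccnd1 and Ccnb2 fell (-0.64 ± 0.10 and -0.29 ± 0.10, adjusted p = 2.81e-05 and 0.036), against 8.68% of all genes. Ccnd3, Ccna2 and Ccnb1 were not called, at 0.26, 0.16 and -0.18, although Ccnd3 passed in 3 of 15 alternatives (only the groups compared and limma on TPM, adjusted p down to 0.000997) and Ccna2 without WT day 3 replicate 3 (adjusted p = 0.039).

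In labelled KO 6 of 10 members changed, against 26.7% of all genes, and 5 rose as well, against 15.5%: Ccnd3 (log2FC 0.81 ± 0.10, adjusted p = 2.48e-06), Cdk1 (0.49 ± 0.09, adjusted p = 0.000341), Cdk2 (0.48 ± 0.07, adjusted p = 7.61e-06), Ccna2 (0.44 ± 0.09, adjusted p = 0.000439) and Ccnb2 (0.29 ± 0.09, adjusted p = 0.0217). Ccnd1 fell (-1.16 ± 0.10, adjusted p = 2.29e-09), against 11.2% of all genes. Ccne1, Ccnb1, Ccne2 and Ccnd2 were not called, at 0.20, 0.18, 0.05 and -0.16. Median member log2FC was 0.26 in WT and 0.25 in labelled KO, beside 0.02 and 0.03 over all genes.

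In WT, Ccnd2 reached 91.8% ± 2.1 of its day 0 level at day 3 (SD, n = 3) and was not called different from it (adjusted p = 0.23), and Cdk2 reached 74.3% ± 1.0. The other 3 that rose stayed lower: Ccne2 reached 34.2% ± 1.4, Ccne1 36.9% ± 3.5 from 29.1% ± 2.0 at day 1, and Cdk1 42.5% ± 2.1 from 34.3% ± 2.2. In labelled KO Cdk1 reached 78.0% ± 10.1 from 55.6% ± 4.0, and Cdk2 94.3% ± 7.0 from 67.9% ± 4.7. Some of the calls in this step rested on few libraries: without WT day 1 replicate 2 the WT rises of Ccne1, Cdk1 and Ccne2 and the WT fall of Ccnb2 were each lost, leaving 3 of 10 members in place of 7. Over all 15 alternatives the Ccne1 call was lost in 6, among them 5 of the 6 libraries left out in turn (adjusted p up to 0.184) and the replicate block (0.0541). Ccnb2 was lost in 5 (up to 0.242), and its log2FC was -0.18 without WT day 3 replicate 3. Cdk1 was lost in 4 (up to 0.116), and Cdk2 in 1, without a filter on low counts (0.0668). In labelled KO the Ccnb2 call was lost in 6 of 15 alternatives (adjusted p from 0.0158 to 0.169), and without the library that stood apart Ccnb1 passed as well (log2FC 0.30, adjusted p = 0.0262), for 7 of 10 members.

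Between the genotypes, 4 of 10 members differed in this step, against 6.05% of all genes. Ccnb2 (difference 0.58 ± 0.13, adjusted p = 0.0081) and Ccnd3 (0.54 ± 0.15, adjusted p = 0.0253) had a more positive step in labelled KO than in WT, where Ccnb2 fell. Ccnd1 (-0.52 ± 0.14, adjusted p = 0.0212) and Ccnd2 (-0.51 ± 0.11, adjusted p = 0.00641) had a more negative step in labelled KO (2.58% of all genes), which for Ccnd2 set a rise in WT against a step that was not called in labelled KO. For Cdk1, Cdk2, Ccna2, Ccnb1, Ccne1 and Ccne2 the difference was 0.18 ± 0.13, 0.22 ± 0.09, 0.29 ± 0.12, 0.36 ± 0.15, -0.14 ± 0.16 and -0.51 ± 0.20, none of which passed, so these data do not show that their step differed. Without the library that stood apart, Ccnd3 was 0.35 (adjusted p = 0.00794) and Ccnb1 passed (0.49, adjusted p = 0.0261), while Ccnd3 lost its call in 6 of 21 alternatives (adjusted p up to 0.0782), Ccnd1 in 3 (up to 0.058) and Ccnb2 in 2 (up to 0.0704).

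From day 3 to day 6 most members fell again. In WT 7 of 10 changed, against 9.79% of all genes, and 6 fell, against 4.92%, led by Ccna2 (log2FC -0.96 ± 0.09, adjusted p = 5.36e-07) and Ccnb1 (-0.88 ± 0.11, adjusted p = 2.44e-05), and Ccnd2 rose (0.51 ± 0.08, adjusted p = 0.000154; 4.87% of all genes). In labelled KO 8 fell, against 21.2% of all genes, led by Ccne2 (-1.62 ± 0.15, adjusted p = 6.75e-09), Ccna2 (-1.48 ± 0.09, adjusted p = 4.14e-11) and Ccnb1 (-1.46 ± 0.11, adjusted p = 6.16e-10), and Ccnd2 again rose (0.84 ± 0.08, adjusted p = 1.55e-08; 20.2% of all genes). The step was more negative in labelled KO for 6 members and less negative for none at an adjusted p under 0.05 in this fit, where 5.99% of all genes had a negative difference, 6.36% a positive one and 12.4% either: Ccne2 (difference -1.03 ± 0.21, adjusted p = 0.00193), Ccne1 (-1.02 ± 0.16, adjusted p = 0.000232), Ccnb2 (-0.80 ± 0.14, adjusted p = 0.000517), Cdk1 (-0.70 ± 0.13, adjusted p = 0.00122), Ccnb1 (-0.58 ± 0.16, adjusted p = 0.0178) and Ccna2 (-0.52 ± 0.12, adjusted p = 0.00753). The Ccnb1 difference was lost in 5 of 21 alternatives (adjusted p up to 0.0666), a positive difference for Ccnd2 (0.34, adjusted p = 0.0506) passed in 5 of 21 (down to 0.0053), a negative one for Ccnd1 (-0.35, adjusted p = 0.0964) in 2 (down to 0.0189), and the WT fall of Ccne2 (-0.59) without WT day 6 replicate 1 (adjusted p = 0.115).

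**Figure D4:**
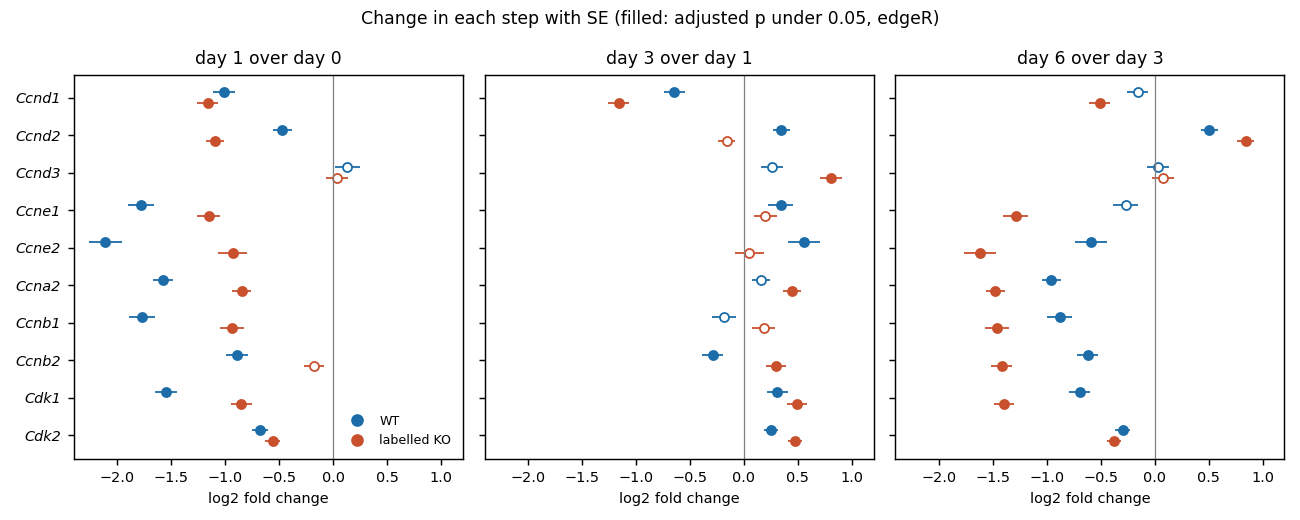
Log2 fold change with SE of each gene in the 3 successive steps, WT in blue and libraries labelled KO in red, filled where the adjusted p was under 0.05. In the step from day 1 to day 3, Ccnb2 fell in WT and rose in libraries labelled KO.

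The series also compared the genotypes on each day. In growth medium 4 of 10 members differed, against 17.5% of all genes. Of these, 3 were higher in labelled KO, against 7.36%: Ccnd1 (log2FC 0.41 ± 0.11, adjusted p = 0.00892), Ccne1 (0.40 ± 0.12, adjusted p = 0.0217) and Cdk1 (0.36 ± 0.10, adjusted p = 0.0187). Ccna2 was lower (-0.28 ± 0.10, adjusted p = 0.044; 10.1% of all genes). The median over the 10 was 0.14, beside -0.00 over all genes, and 9 of 10 members did not overlap, as did 51.6% of all genes. These 4 calls rested on few libraries: none of the 10 members passed without WT day 0 replicate 1 or without replicate 2, and 1 passed without labelled KO replicate 3. Of 14 alternatives, Ccna2 lost its call in 8 (adjusted p up to 0.254), among them RLE scaling (0.051), no filter (0.0539), the replicate block (0.0642) and each library left out, Ccne1 in 6 (up to 0.128), Ccnd1 in 4 (up to 0.0661) and Cdk1 in 3 (up to 0.169).

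At day 1, 8 members were higher in labelled KO, against 22.9% of all genes. They were Ccne2 (log2FC 1.29 ± 0.14, adjusted p = 1.96e-07), Cdk1 (1.06 ± 0.10, adjusted p = 8.1e-09), Ccne1 (1.03 ± 0.11, adjusted p = 1.9e-07), Ccnb1 (0.92), Ccnb2 (0.81), Ccna2 (0.45), Cdk2 (0.29) and Ccnd1 (0.26). Ccnd2 was lower (-0.42 ± 0.08, adjusted p = 0.000177; 19.2% of all genes) and Ccnd3 was not called (-0.17, adjusted p = 0.188), with -0.02 without the library that stood apart and -0.27 (adjusted p = 0.0468) without replicate 3 of that group. The member median was 0.63, beside 0.03 over all genes. The Ccnd1 call was lost in 10 of 15 alternatives (adjusted p from 0.00643 to 0.138), and the Cdk2 call when only the groups compared were fitted (0.0631).

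At day 3 all 10 members differed: 8 were higher in labelled KO, against 24.0% of all genes, and 2 were lower, against 19.2%. The mitotic genes differed most, with Ccnb2 at 2.63-fold (log2FC 1.39 ± 0.10, adjusted p = 6.43e-11), Ccnb1 at 2.43-fold (1.28 ± 0.11, adjusted p = 2.6e-09) and Cdk1 at 2.35-fold (1.24 ± 0.09, adjusted p = 3.95e-10). Ccne1 (0.89), Ccne2 (0.79), Ccna2 (0.74), Cdk2 (0.51) and Ccnd3 (0.37) followed. Ccnd2 (-0.93 ± 0.08, adjusted p = 2.58e-09) and Ccnd1 (-0.26 ± 0.10, adjusted p = 0.0318) were lower. The member median was 0.76, beside 0.04 over all genes, and all 10 did not overlap, as did 60.4% of all genes. The Ccnd1 call was lost without WT replicate 3, or labelled KO replicate 1 or 2 (adjusted p up to 0.114), and the Ccnd3 call with limma on TPM (up to 0.0602).

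At day 6, 6 members were higher in labelled KO, against 22.0% of all genes: Ccnb1 (log2FC 0.70 ± 0.11, adjusted p = 2.81e-05), Ccnb2 (0.60 ± 0.10, adjusted p = 2.99e-05), Cdk1 (0.53 ± 0.10, adjusted p = 9.11e-05), Cdk2 (0.43), Ccnd3 (0.42) and Ccna2 (0.22). Ccnd1 (-0.61 ± 0.10, adjusted p = 1.7e-05) and Ccnd2 (-0.59 ± 0.08, adjusted p = 1.42e-06) were lower, against 20.8% of all genes. Ccne1 and Ccne2 were not called, at -0.13 and -0.24. The member median was 0.32, beside 0.00 over all genes. The Ccna2 call was lost in 11 of 15 alternatives (adjusted p from 0.0276 to 0.481), and its log2FC ran from 0.09 to 0.28 over them. Without WT day 6 replicate 1 the value of Ccne2 was -0.44 and passed (adjusted p = 0.0242).

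**Figure D5:**
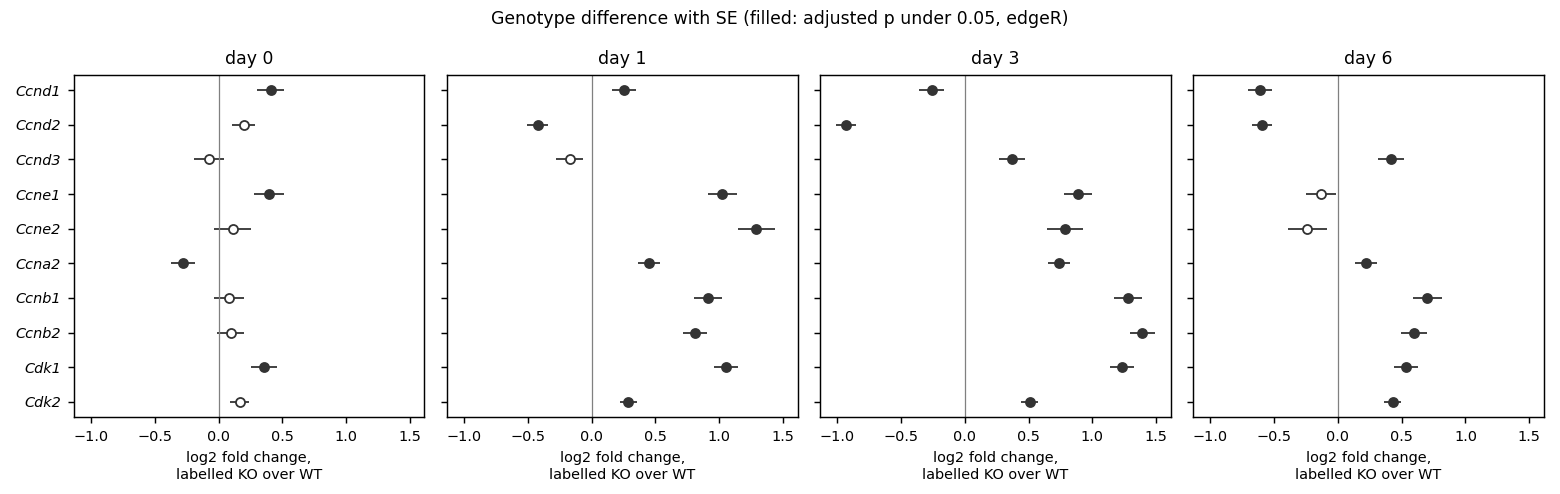
Log2 fold change with SE of each gene, libraries labelled KO over WT, on each day, filled where the adjusted p was under 0.05. At day 3 the 3 largest values are those of Ccnb2, Ccnb1 and Cdk1, and Ccnd2 is lowest.

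Myotube markers moved with these comparisons: all 6 were higher in labelled KO at days 3 and 6 and 5 of 6 at day 1, and their summed TPM at day 3 was 2356 to 2548 in WT and 3754 to 6799 in labelled KO. All 6 rose from day 0 to each later day in both genotypes. Other marker lists held calls too. In labelled KO 2, 2, 4 and 2 of 6 myoblast markers were higher and 1, 2, 0 and 2 lower at days 0, 1, 3 and 6 (median log2FC 0.08, -0.18, 0.39 and 0.09). Of all genes 7.36%, 22.9%, 24.0% and 22.0% were higher and 10.1%, 19.2%, 19.2% and 20.8% lower, so 2 of 6 each way at days 1 and 6 is near what all genes show. Of 2 tested epithelial markers 1 was higher at day 1 (median 1.17, at a summed TPM of at most 2.18) and both at day 6 (median 4.14, at a summed TPM of at most 2.07). Of 3 tested macrophage or blood markers 1 was lower at day 1, 2 were lower at day 3, and 2 were lower and 1 higher at day 6. The part of these lists in the results on cyclins was not tested.

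The partners of these genes were described from lists chosen with earlier results of these data known. Their counts at days 0, 1, 3 and 6 stand against 7.36%, 22.9%, 24.0% and 22.0% of all tested genes higher in labelled KO and 10.1%, 19.2%, 19.2% and 20.8% lower. Cdk4 and Cdk6, the kinases of D cyclins, fell in both genotypes: by day 6 the log2FC of Cdk4 was -0.91 in WT and -1.02 in labelled KO, and that of Cdk6 was -1.26 and -1.72. Cdk6 was higher in labelled KO on every day, by 0.72, 0.98, 0.66 and 0.27 on the log2 scale, and Cdk4 was higher at days 1 and 3, by 0.29 and 0.55. Of 13 tested partner kinases and activators, 3, 10, 10 and 4 were higher in labelled KO at days 0, 1, 3 and 6, and none was lower at an adjusted p under 0.05, the count at day 6 being near the share of all genes. Cdc25b, a phosphatase that activates Cdk1, had a day 3 log2FC of 0.94.

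Inhibitors of the kinases did not follow one course. Cdkn1a, which encodes p21, stood at 194 to 200 CPM in WT and 176 to 204 CPM in labelled KO at day 0, and at 482 to 610 and 959 to 1251 CPM at day 6. From day 3 to day 6 it rose in labelled KO (log2FC 0.91) and was not called in WT (0.17, adjusted p = 0.441), and this step differed between the genotypes (difference 0.74 ± 0.17, edgeR adjusted p = 0.00578), and at day 6 it was higher in labelled KO by 1.03 on the log2 scale. Cdkn1b, which encodes p27, rose by day 1 in both genotypes, with a log2FC of 1.07 in WT and 0.92 in labelled KO. Cdkn2c, an inhibitor of Cdk4 and Cdk6, rose from day 1 to day 3 in both genotypes (0.38 in WT and 0.79 in labelled KO) and was higher in labelled KO at day 3 (0.70). Of the 5 inhibitors tested, 0, 1, 1 and 2 were higher and 2, 2, 1 and 1 lower in labelled KO at days 0, 1, 3 and 6, and a single gene of 5 is near the share of all genes at days 1, 3 and 6. Cdkn1c, the one called lower at days 3 and 6, was also lower at days 0 and 1; it encodes p57 and reached at most 2.56 CPM in any library.

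For the machinery that degrades cyclins, 2, 7, 6 and 6 of 11 genes were higher in labelled KO at days 0, 1, 3 and 6, and none passed as lower. Of all genes 7.36%, 22.9%, 24.0% and 22.0% were higher. Cdc20 and Ube2c, which act in the anaphase-promoting complex that destroys B cyclins, had day 3 values of 1.28 and 1.43. In the Rb and E2f list 2, 9, 9 and 5 of 13 were higher, against the same shares, and E2f1 alone was lower, at day 6 (-0.79, where 20.8% of all genes were lower). Rb1, the retinoblastoma gene, was higher in labelled KO at day 6 (0.77), as were E2f2 (1.22) and E2f8 (1.40), a repressor of E2f targets. Mybl2, an activator of mitotic promoters, fell by day 6 by 3.08 on the log2 scale in WT and fell by 3.03 in labelled KO.

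Genes of S phase and of mitosis, not members, parted at day 6. Of 10 S phase genes (Mcm2 to Mcm7, Pcna, Cdc6, Cdt1 and Rrm2), 0, 9, 10 and 0 were higher in labelled KO at days 0, 1, 3 and 6, and Rrm2 was lower at day 6 (-0.63). Of 10 mitosis genes 0, 10, 10 and 10 were higher. Both lists stand against 7.36%, 22.9%, 24.0% and 22.0% of all genes higher on these days. The median log2FC at day 6 was -0.10 for the S phase list and 0.56 for the mitosis list, beside 0.00 over all genes. Beside these stand the day 6 values of Ccne1 and Ccne2 (-0.13 and -0.24), of Cdk2 and Ccna2 (0.43 and 0.22), and of Ccnb1, Ccnb2 and Cdk1 (0.70, 0.60 and 0.53). The Ccna2 value ran from 0.09 to 0.28 over the alternatives, and its call was lost in 11 of 15. In the genotype-by-step difference from day 1 to day 3, none of the 10 S phase and none of the 10 mitosis genes passed by edgeR, a count near the 6.05% of all genes. At an unadjusted p under 0.05 stood 2 of the 20, Plk1 (0.52) and Nusap1 (0.36). Of the other lists 2 of 13 partners passed (Cdc25b at 0.71 and Ccnf at 0.49), 2 of 11 turnover genes (Cdc20 at 0.57 and Ube2c at 0.78), 1 of 13 in the Rb and E2f list (E2f8 at 0.60) and 1 of 5 inhibitors (the low-count Cdkn1c).

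Over the 23 libraries, which share groups and days, the log2 CPM of the members was correlated between members, as a description. Ccne1 and Ccne2 had r = 0.98, Ccnb1 and Cdk1 0.963, and Ccna2 and Ccnb1 0.963. Ccnd1 and Ccnd3 had r = -0.837, and Ccnd2 had no r above 0.207 with any member and its lowest, -0.517, with Ccnb2. Outside the members, the gene most like Ccne1 was Mcm4 (r = 0.987), the one most like Ccne2 was Lig1 (0.986), both known in DNA replication. Ccna2 was nearest to Ccnf (0.986), Ccnb1 to Nek2 and Kif23 (both 0.994), Ccnb2 to Knstrn (0.989) and Cdk1 to Cep55 (0.991). Cdk2 was nearest to E2f8 (0.959), Ccnd1 to Lasp1 (0.985), Ccnd2 to Inhba (0.945) and Ccnd3 to Ckb (0.949), the brain-type creatine kinase.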

How the data were processed

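RNA selected for poly(A) from 23 libraries of C2C12 cells in 8 groups of genotype and day was sequenced, per the labels' protocols. The submitters' processing notes name RSEM, Bowtie2 and the build mm10; the annotation and the use of strand are not given in the sources used here. The authors deposited a table of estimated counts, as whole numbers, and a table of TPM, each of 32793 genes. All sample columns were used. Totals ran from 22197606 to 23684077 estimated counts, so depth was nearly equal. Counting error weighs most on Ccne2, the member with the lowest level (down to 6.70 CPM).

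Counts were scaled by TMM, filtered with filterByExpr (minimum count 10, minimum total 15; 14187 genes left) and fitted over all groups with the quasi-likelihood test of edgeR 4.0.16 in R 4.3.3. P-values were adjusted by the Benjamini-Hochberg method over all 14187 genes in each of 17 comparisons, with a threshold of 0.05. Adjusted p-values in the text come from this test unless another is named. SE is the log2 fold change divided by the square root of F. The fit was tested on simulated data. CPM was computed from the TMM-scaled library sizes. Alternatives were DESeq2 1.42.0, limma 3.58.1 on log2(TPM + 1) and log2(TPM + 0.1), RLE scaling, library size only, genes kept without a filter or from a mean count of 50, only the groups compared, a replicate block, and each library left out. The members and the gene lists were chosen with earlier results of these data known. All 10 members were named, other genes from the lists were named for their role in the pathway after their values were seen, and the gene most like each member was ranked by Pearson's r of log2 CPM. Positions are from GRCm38.p6 and upstream sequences from RefSeq.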

Additional observations from a re-analysis of the deposited data

Results flagged for a closer look

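For 17 values the step between successive days differed between libraries labelled KO and WT by edgeR's test of the difference itself; each is a difference in log2 fold change, labelled KO minus WT, with its adjusted p. The step from day 0 to day 1 was less negative in labelled KO for Ccne2 (1.18, adjusted p = 0.0017), Ccnb1 (0.84, adjusted p = 0.0039), Ccna2 (0.73, adjusted p = 0.00198), Ccnb2 (0.72, adjusted p = 0.0046), Cdk1 (0.70, adjusted p = 0.0053) and Ccne1 (0.63, adjusted p = 0.0302), and more negative for Ccnd2 (-0.62, adjusted p = 0.00383). From day 1 to day 3 the difference was 0.58 for Ccnb2 (adjusted p = 0.0081), 0.54 for Ccnd3 (adjusted p = 0.0253), -0.52 for Ccnd1 (adjusted p = 0.0212) and -0.51 for Ccnd2 (adjusted p = 0.00641). From day 3 to day 6 it was negative for Ccne2 (-1.03, adjusted p = 0.00193), Ccne1 (-1.02, adjusted p = 0.000232), Ccnb2 (-0.80, adjusted p = 0.000517), Cdk1 (-0.70, adjusted p = 0.00122), Ccnb1 (-0.58, adjusted p = 0.0178) and Ccna2 (-0.52, adjusted p = 0.00753). Successive steps share libraries, so these values are not independent of each other.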

How the results depend on the processing

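Of 2680 member values under the alternatives, 2549 kept their direction and their side of the threshold, 101 fell short of it, 19 came past it and 11 changed sign. Those that changed sign were small and did not pass the test to begin with. They were Ccnd2 in WT from day 0 to day 3 (0.0397 with limma on log2(TPM + 1) and 0.0412 on log2(TPM + 0.1)), Ccnd3 in labelled KO from day 0 to day 1 (-0.0038 without KO day 0 replicate 2, -0.055 without KO day 1 replicate 1 and -0.065 without its replicate 3; up to 0.22 with another library left out), Ccnd3 in WT from day 3 to day 6 (-0.016 without WT day 6 replicate 2; up to 0.072), Ccne2 in labelled KO from day 1 to day 3 (-0.019 and -0.020 with limma on TPM, -0.052 without KO day 1 replicate 3 and -0.087 without KO day 3 replicate 2; up to 0.18), and the difference between genotypes for Ccnd3 from day 0 to day 1 (0.032 without KO day 1 replicate 2; down to -0.20).

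Members called between genotypes at day 0 numbered 4, but 2 in both limma fits and 0 to 3 with a library left out. With a library left out the members called were 3 to 6 of 10 for WT from day 1 to day 3, and 2 to 5 for the difference between genotypes in that step. Fitting only the groups compared moved the number of all genes called between genotypes at day 1 from 5981 to 3607, for WT from day 1 to day 3 from 2797 to 4642, for labelled KO in that step from 3790 to 1659, and for the difference from day 0 to day 1 from 560 to 239. With a library left out, all genes called ran from 1265 to 2216 between genotypes at day 0 (2479 with all), 762 to 1579 for WT from day 3 to day 6 (1389), 148 to 919 for the difference from day 0 to day 1 (560) and 1125 to 1893 for that from day 3 to day 6 (1753). The cause was not tested. With WT day 0 at 2 libraries, leaving one out assumes that the other varies like the remaining groups.

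Equal replicate numbers did not pair the libraries: the mean correlation of their deviations from the group means was between -0.094 and 0.049. With the replicate block, 3 member calls were lost (Ccna2 between genotypes at days 0 and 6, and Ccne1 in WT from day 1 to day 3), and no count moved by over 1.5 times.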
